A study of Mus musculus with 5 samples.

Results

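A set of 10 genes that build and crosslink the extracellular matrix were followed through 5 droplet single-cell RNA libraries of mouse muscle progenitors and epithelioid sarcomas. The genes were taken by name from the gene list of the count matrices, where 10 of 10 were found among 28001 features. They are the lysyl oxidases Lox, Loxl1, Loxl2 and Loxl3, the fibrillins Fbn1 and Fbn2, the tenascins Tnc and Tnxb, and the collagen-modifying enzymes P4ha2 and Plod2. Levels are given for whole libraries and for 4 kinds of cell picked by a few transcripts each, which are sarcoma cells, tumour stroma, mural cells and muscle progenitors.

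All animals were C57BL/6J mice in which both copies of Hic1, a gene of mesenchymal progenitors, carry a tamoxifen-activated Cre recombinase (Hic1CreERT2/CreERT2). Cre switches on the red reporter tdTomato from the Rosa26 locus, so labelled cells descend from cells that used the Hic1 promoter when tamoxifen was given. The muscle group is 1 library of quiescent mesenchymal progenitors from hindlimb muscle, of genotype Hic1CreERT2/CreERT2;Rosa26LSLtdTomato/+. The sarcoma group is 4 libraries of sarcoma cells at endpoint, of genotype Hic1CreERT2/CreERT2;Rosa26LSLtdTomato/LSLtdTomato;Smarcb1FL/FL, in which Cre can also delete the chromatin remodelling subunit Smarcb1. The tissue of the sarcomas, numbered 1 to 4, was shoulder, head, head/ear and hip. Tamoxifen was given to adults of 8 weeks at 2.5 mg a day in 100 µL of oil for 5 days. A 10-day washout followed. Cells were sorted before loading. Muscle and sarcomas differ at once in Smarcb1 alleles, reporter copies, tissue and disease, which cannot be told apart. Depth differed too, at a median of 7566 counted RNA molecules a cell in muscle and 20005 to 28658 in the sarcomas. The age at collection is not given here for either group. Whether each sarcoma is from its own mouse is not stated, so a p-value speaks only of the spread among these libraries, which may be technical.

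Lysyl oxidases are secreted copper enzymes that oxidise lysines of collagen and elastin, which starts the covalent crosslinks that stiffen a matrix. Before secretion, prolyl hydroxylases such as P4ha2 stabilise the collagen triple helix and lysyl hydroxylases such as Plod2 prepare the lysines used in crosslinks. Fibrillins form the microfibrils on which elastin is laid down and which hold latent TGF-beta. Tenascin-C appears around cells in development, wounds and tumours, while tenascin-X belongs to the resting connective tissue of muscle and skin, where it spaces collagen fibrils.

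The matrices held 39930 barcodes, of which 37519 cells were kept (6824 to 8206 a library, with 63300999 UMIs in muscle and 150323199 to 211830490 in the sarcomas). No pair of libraries shared more than 22 barcodes. A UMI is 1 counted RNA molecule. Levels are UMIs of a gene per 1000000 UMIs (CPM) of the library or class. Sarcoma cells held at least 2 UMIs of Gchfr and none of Smarcb1, and stroma held at least 4 summed UMIs of Ddah1, Wisp1 and C1qtnf7. Mural cells, the contractile cells around small vessels, held at least 5 Rgs5 UMIs per 10000, and muscle progenitors at least 1 UMI of Pdgfra. Cells that met more than 1 rule (21 to 92 a library) were left out of the classes. This gave 5128, 7383, 2839 and 3335 sarcoma cells, 141, 147, 1671 and 35 stroma cells and 182, 132, 233 and 25 mural cells in sarcomas 1 to 4, with 6025 progenitors and 661 mural cells in muscle. Stroma and mural cells of sarcoma 4 are thus few, and no muscle cell met the sarcoma cell rule. Cells that met no rule were 25.8%, 5.84%, 30.4% and 49.9% of the kept cells of sarcomas 1 to 4. In sarcoma 4 they held from 22.8% (Loxl2) to 75.8% (Tnxb) of the UMIs of a member, so the classes do not cover the tumours.

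The class labels were set against marker lists. The mural list holds Rgs5 and the progenitor list Pdgfra, which the rules used, so the rules fixed part of these sums in advance. Summed mural markers reached 10832 to 19628 CPM in mural cells and 13.6 to 1278 CPM in the other classes. In mural cells of the sarcomas Rgs5 alone stood at 3855 to 7535 CPM. Summed progenitor markers were 61583 CPM in muscle progenitors, 1887 to 13201 CPM in stroma and 719 to 7634 CPM in sarcoma cells. Haematopoietic markers summed to no more than 90.6 CPM and keratinocyte markers to no more than 61.7 CPM in any class or in the cells that met no rule. Smarcb1 stood at 88.7 CPM in the muscle library and at 2.48, 3.02, 20.5 and 0.484 CPM in the sarcoma libraries. In stroma it stood at 47.3, 65.7, 59.9 and 19.6 CPM, so the stroma of sarcoma 4 is lower than that of the other sarcomas. Of stroma cells, 61.0%, 76.2%, 69.1% and 25.7% held a Smarcb1 UMI, so sarcoma 4 has the lowest share. Stroma results were also computed without sarcoma 4 and with Smarcb1-holding stroma alone.

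RefSeq promoter entries (GRCm38.p6) matched 4 members, Tnc, Tnxb, Fbn1 and P4ha2. Those of Tnc, Tnxb and P4ha2 are shown because their genes carry the contrasts below. The tenascins have opposite levels in stroma and muscle progenitors, and P4ha2 has a low level in sarcoma cells. Each line is the 250 bases before the start of the transcript, 5′ to 3′ on the strand of the gene. Capitals mark TATAAA in Tnc, TGANTCA in Tnxb, and ACGTG or GCGTG on either strand in P4ha2.
Tnc: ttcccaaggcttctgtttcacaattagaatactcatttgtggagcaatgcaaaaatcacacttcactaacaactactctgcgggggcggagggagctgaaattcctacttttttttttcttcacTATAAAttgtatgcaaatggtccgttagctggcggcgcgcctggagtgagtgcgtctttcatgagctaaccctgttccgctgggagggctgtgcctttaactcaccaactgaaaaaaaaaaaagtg
Tnxb: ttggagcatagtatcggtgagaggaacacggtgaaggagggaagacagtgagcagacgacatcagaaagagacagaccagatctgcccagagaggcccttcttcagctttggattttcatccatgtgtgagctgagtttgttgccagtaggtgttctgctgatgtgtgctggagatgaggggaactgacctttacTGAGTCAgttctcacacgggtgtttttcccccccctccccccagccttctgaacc
P4ha2: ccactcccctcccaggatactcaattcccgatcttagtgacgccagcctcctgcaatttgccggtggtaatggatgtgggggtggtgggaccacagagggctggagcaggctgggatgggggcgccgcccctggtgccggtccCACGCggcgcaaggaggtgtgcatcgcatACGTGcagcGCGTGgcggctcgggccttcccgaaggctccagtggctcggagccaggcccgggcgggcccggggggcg
The Tnc window lies on chromosome 4, chr4:64047016-64047265, minus strand. The Tnxb window lies at chr17:34670285-34670534 and that of P4ha2 at chr11:54100674-54100923, both on the plus strand. The P4ha2 window lies inside the span of the gene given below, which begins at 54100095. The P4ha2 start used here is thus that of a RefSeq transcript, downstream of the first base of that span. TATAAA begins 126 bases before the Tnc start, which is 1 of 2 starts that RefSeq lists for the gene, and 3504 of 27025 promoter windows of this length hold it on either strand. TGANTCA, the AP-1 motif, begins 55 bases before the Tnxb start and occurs in 6.87% of windows. ACGTG begins 78 bases before the P4ha2 start (16.6% of windows), and GCGTG, which does not overlap it, 107 and 69 bases before (28.2% of windows). Both are cores of the hypoxia response element, and 38.6% of windows hold at least 1 of them. GGAATG, the TEAD motif, was in none of the 4 matched members and in 12.6% of windows. These matches describe the letters and say nothing of binding.

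The first question was which cells of the tumours carry these transcripts. Within the sarcoma libraries, 5 of the 10 genes were lower in sarcoma cells than in stroma, and no member was higher. These were Loxl1, Tnc, Fbn1, Fbn2 and P4ha2. Over all 11544 genes tested 7.26% were lower in sarcoma cells and 3.62% higher by the same call (edgeR quasi-likelihood test with the library as a block, Benjamini-Hochberg adjusted p of at most 0.05). The median log2 fold change of the 10 genes was −4.23, beside 0.07 over all genes. The same 5 genes had CPM ranges that did not overlap between the classes, which holds for 5.16% of genes. Fewer cells of a type and less RNA per cell can both lower a gene in a whole library, so class levels are given first and library levels after them.

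**Figure D1:**
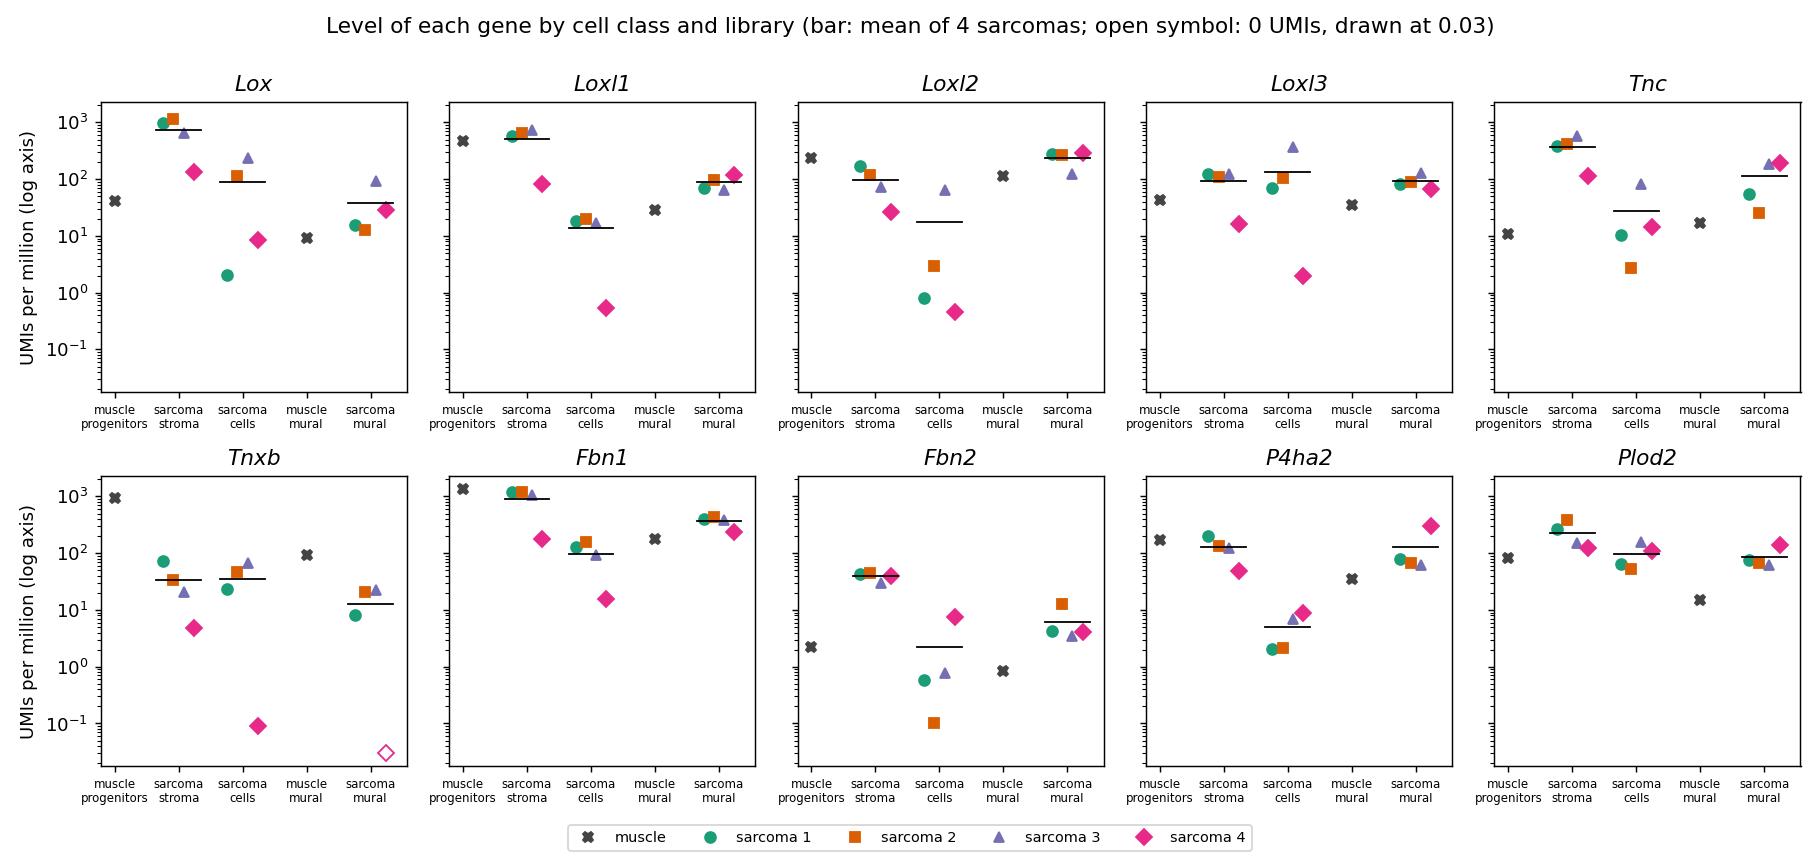
CPM of each gene on a log axis, by cell class; each symbol is 1 library, bars are means of the 4 sarcomas, and the open symbol is a class with 0 UMIs, drawn at 0.03. All 4 stromas lie above muscle progenitors for Lox, Tnc, Fbn2 and Plod2 and below them for Tnxb, and sarcoma cells lie wholly below stroma for Loxl1, Tnc, Fbn1, Fbn2 and P4ha2.

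Fbn1, the main fibrillin of adult microfibrils, stood at 1191, 1201, 1050 and 175 CPM in the stroma of sarcomas 1 to 4. In sarcoma cells it stood at 129, 154, 91.9 and 15.7 CPM. The 4 sarcoma cell values all lie under the lowest stroma value, which is that of sarcoma 4. The log2 fold change was −3.28 ± 0.44 (SE, edgeR adjusted p = 0.00463), and the ratio within a library was similar everywhere, with sarcoma cells at 10.8%, 12.9%, 8.75% and 8.95% of the stroma level. Fbn1 passed the test in all 16 alternative analyses that were run.

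Loxl1, the lysyl oxidase tied to elastin, followed Fbn1 closely. Its stroma levels were 575, 640, 750 and 83.2 CPM and its sarcoma cell levels 18.6, 19.7, 16.6 and 0.544 CPM. Sarcomas 1 to 3 were alike in both classes and sarcoma 4 was low in both. The log2 fold change was −5.35 ± 0.97 (SE, edgeR adjusted p = 0.0135). Over the 14 class profiles of all libraries, Fbn1 was the gene whose log2(CPM + 1) was most like that of Loxl1 among 11265 genes compared, and Loxl1 the gene most like Fbn1 (Pearson r = 0.968, given as a description, since profiles of a library share cells' handling and depth). Elastic fibre genes were otherwise not the next in line for Fbn1, where P2rx4 and Srpx2 followed.

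P4ha2, the catalytic subunit of a collagen prolyl hydroxylase, stood at 202, 133, 121 and 48.1 CPM in stroma. In sarcoma cells it stood at 2.06, 2.16, 6.95 and 8.89 CPM, so the order of the libraries in sarcoma cells is the reverse of that in stroma. The log2 fold change was −5.07 ± 0.79 (SE, edgeR adjusted p = 0.00785). Plod2, the lysyl hydroxylase of the collagen telopeptides, did not follow it. Plod2 stood at 267, 380, 149 and 123 CPM in stroma and 63.7, 52.8, 159 and 110 CPM in sarcoma cells, and the ranges overlap. Sarcoma cells held 23.9% and 13.9% of the stroma level in sarcomas 1 and 2 but 106% and 89.4% in sarcomas 3 and 4. The fitted difference was −1.33 ± 0.52 (log2, SE, edgeR adjusted p = 0.131).

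Tnc, tenascin-C, stood at 383, 418, 577 and 113 CPM in stroma against 10.6, 2.69, 82.4 and 14.6 CPM in sarcoma cells. Sarcoma 3 was the highest in both classes. The log2 fold change was −4.80 ± 0.93 (SE, edgeR adjusted p = 0.0171). Fbn2, the fibrillin of embryonic and growing tissue, stood at 43.0, 44.7, 30.3 and 40.0 CPM in stroma. The value of sarcoma 4 lies inside the range of the others but averages unlike cells. Its stroma cells stood at 196 CPM with a Smarcb1 UMI and 14.3 CPM without. In sarcoma cells Fbn2 stood at 0.595, 0.102, 0.777 and 7.41 CPM, with sarcoma 4 the highest (log2 difference −5.31 ± 1.08, SE, edgeR adjusted p = 0.0206).

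The other lysyl oxidases differed from tumour to tumour. Lox, the founding member of the family, stood at 963, 1137, 660 and 133 CPM in stroma, and at 2.03, 115, 238 and 8.37 CPM in sarcoma cells. Sarcoma cells of sarcoma 1 held 0.211% of the stroma level and those of sarcoma 3 held 36.1%. All 4 libraries were lower in sarcoma cells, but the fold change of −4.01 ± 1.21 (log2, SE) did not pass (edgeR adjusted p = 0.0704). Loxl2, which acts on collagen IV of basement membranes, stood at 170, 117, 74.1 and 26.1 CPM in stroma and 0.82, 2.95, 65.3 and 0.463 CPM in sarcoma cells. Here sarcoma 3 alone had sarcoma cells near its stroma, at 88.1% of the level, against 0.483%, 2.53% and 1.78% in the other sarcomas. The log2 fold change was −4.45 ± 1.73 (SE, edgeR adjusted p = 0.128) and, without sarcoma 3, −6.26 (adjusted p = 0.0222). Loxl3, another lysyl oxidase of collagens, stood at 122, 110, 123 and 16.3 CPM in stroma and 68.6, 104, 362 and 1.98 CPM in sarcoma cells, which spans both sides of stroma (log2 fold change −0.17 ± 0.83, SE, edgeR adjusted p = 0.915).

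Tnxb, tenascin-X, showed no common direction. It stood at 72.7, 34.0, 20.9 and 4.90 CPM in stroma and 23.2, 47.2, 67.5 and 0.0891 CPM in sarcoma cells. Sarcoma cells were higher than stroma in sarcomas 2 and 3 and lower in sarcomas 1 and 4. The fitted difference was −0.69 ± 0.91 (log2, SE, edgeR adjusted p = 0.652). Over the 14 class profiles the Pearson r of Tnc and Tnxb was −0.19, given as a description only.

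Fbn1 aside, the calls were lost when some libraries were left out and held without others. Without sarcoma 1, 2 or 3 the log2 fold change of Loxl1 was −5.56, −5.53 and −5.25 (edgeR adjusted p = 0.0834, 0.0976 and 0.0828) and that of Tnc was −4.56, −3.82 and −5.54 (adjusted p = 0.137, 0.0810 and 0.0568). Fbn2 likewise reached adjusted p = 0.155, 0.0581 and 0.137, and P4ha2 lost its call without sarcoma 1 (adjusted p = 0.0637) or sarcoma 2 (adjusted p = 0.0807) and kept it without sarcoma 3 (adjusted p = 0.0467). Without sarcoma 4 the 4 genes Loxl1, Tnc, Fbn2 and P4ha2 all passed (adjusted p = 0.000418, 0.00909, 0.00537 and 0.00180). Without the library as a block, Tnc and Fbn2 missed the threshold (adjusted p = 0.0571 and 0.0507). The number of genes called moved with the libraries too, from 1256 in all 4 to 280, 212, 314 and 3121 without sarcoma 1, 2, 3 or 4.

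**Figure D2:**
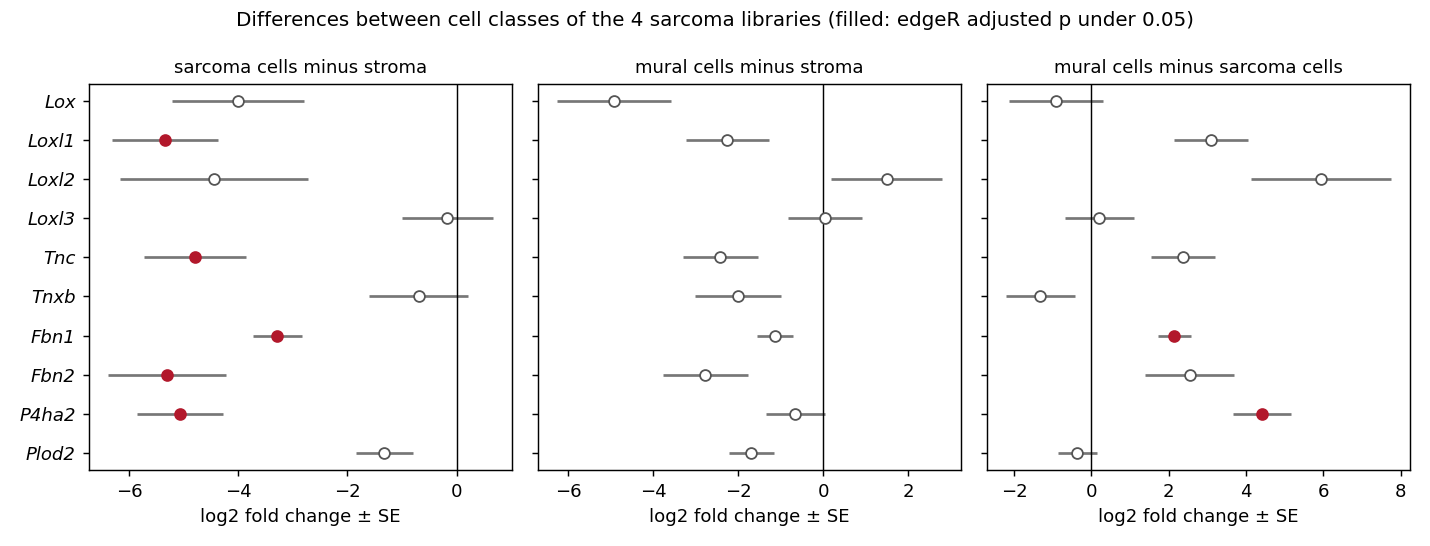
Log2 fold change ± SE of each gene between cell classes of the 4 sarcoma libraries, with filled points for genes past the edgeR threshold. On the left 5 genes are filled, none in the middle, and Fbn1 and P4ha2 on the right.

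The low stroma levels of sarcoma 4 were looked at by summing its stroma cells with and without a Smarcb1 UMI. Of its 35 stroma cells, 9 held a Smarcb1 UMI and 26 did not. Lox stood at 647 CPM in the 9 cells (112 UMIs) and 48.5 CPM in the 26. Loxl1 stood at 520 and 11.4 CPM, Fbn1 at 919 and 53.2 CPM, and Tnc at 664 and 22.8 CPM in the same order. P4ha2 stood at 295 and 7.60 CPM, Fbn2 at 196 (34 UMIs) and 14.3 CPM, while Plod2 stood at 208 and 109 CPM. For each of these genes the cells with a Smarcb1 UMI were the higher. In sarcoma 1 the same split gave Lox at 950 and 988 CPM and Fbn1 at 1203 and 1168 CPM, close together, and Tnc at 465 and 231 CPM. In sarcoma 2 Tnc went the other way, at 349 and 708 CPM, with Lox at 1120 and 1207 CPM. These are sums over few cells of 1 library and carry no test. With stroma limited to Smarcb1-holding cells, an alternative chosen after seeing the data, the 5 calls against sarcoma cells were the same and Lox joined them (log2 fold change −4.56, edgeR adjusted p = 0.0320). Lox passed in 4 of 16 alternatives in all. The others were DESeq2 (adjusted p = 0.000486), thinning to 2000 UMIs (edgeR adjusted p = 0.0264) and stricter class rules (edgeR adjusted p = 0.0325).

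Mural cells were compared with both other classes. Over all genes 7.87% differed between mural cells and stroma, and of the 10 members none passed. Lox came nearest to the threshold, with 15.8, 12.6, 92.7 and 29.1 CPM in mural cells (log2 fold change −4.92 ± 1.33 against stroma, SE, edgeR adjusted p = 0.0609). It passed in 4 of 16 alternatives, among them DESeq2 (adjusted p = 0.000113), thinning to 2000 UMIs (edgeR adjusted p = 0.0242) and stricter class rules (edgeR adjusted p = 0.0266). Lox and Fbn2 had mural ranges wholly below those of stroma, as did 4.25% of genes. Loxl2 went the other way in all 4 libraries, with 277, 264, 125 and 286 CPM in mural cells, but did not pass (log2 fold change 1.49 ± 1.30, SE, edgeR adjusted p = 0.571). Mural Loxl2 was 1.63, 2.27, 1.69 and 10.97 times its stroma level in sarcomas 1 to 4. Without sarcoma 4 the genes Fbn1, Loxl1, Plod2 and Tnc passed as lower in mural cells than in stroma (log2 fold change −1.70, −3.30, −2.17 and −3.29, edgeR adjusted p = 0.00616, 0.00126, 0.0452 and 0.0455).

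Against sarcoma cells, mural cells were higher for 2 of the 10 members, beside 10.0% of all genes. Fbn1 stood at 400, 439, 385 and 241 CPM in mural cells, every value above every sarcoma cell value. The log2 difference was 2.15 ± 0.44 (SE, edgeR adjusted p = 0.0131). P4ha2 stood at 78.1, 66.5, 61.5 and 303 CPM (log2 difference 4.41 ± 0.75, SE, adjusted p = 0.00666), with sarcoma 4 far above the other sarcomas on 25 cells. Loxl1, at 71.0, 97.1, 65.6 and 116 CPM, and Loxl2 also lay wholly above sarcoma cells and narrowly missed (adjusted p = 0.0529 and 0.0512). Ranges apart in this direction were found for 11.9% of genes. Fbn1 lost its call without sarcoma 2 (adjusted p = 0.0528), without sarcoma 3 (adjusted p = 0.0617) or without the library as a block (adjusted p = 0.143), and P4ha2 without sarcoma 2 (adjusted p = 0.0561). Loxl1 and Fbn2 passed without sarcoma 4 (log2 fold change 1.93 and 3.65, adjusted p = 0.00180 and 0.0341) and Loxl2 without sarcoma 3 (7.87, adjusted p = 0.00743).

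Lists of matrix pathway genes, some of which contain members, were followed in the same test of sarcoma cells against stroma, where 7.26% of all genes were lower and 3.62% higher. Of 20 elastic fibre genes, 10 were lower and none higher in sarcoma cells, with a median log2 fold change of −3.46. Among the 10 are Fbn1 and Fbn2, already given. The others include Mfap2, a microfibril protein that binds fibrillin, at 251 ± 153 CPM in stroma and 1.95 ± 3.14 in sarcoma cells (SD, n = 4; log2 fold change −7.99, edgeR adjusted p = 0.00869), and elastin itself, Eln, at 400 ± 401 and 2.55 ± 3.61 CPM (log2 fold change −7.58, adjusted p = 0.0221). Mfap5, a second microfibril protein, was lower by 5.64 on the log2 scale (adjusted p = 0.0289), while the fibulin gene Fbln2 did not pass (adjusted p = 0.179). Of 9 fibrillar collagen genes tested 7 were lower, with a median of −3.84, among them Col3a1 at 13349 ± 7889 CPM in stroma and 931 ± 560 in sarcoma cells (SD, n = 4; log2 fold change −3.84, edgeR adjusted p = 0.00836) and Col1a2 (log2 fold change −2.07, adjusted p = 0.0125). Col1a1 missed the threshold (log2 fold change −4.51, adjusted p = 0.0551).

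The next list holds enzymes and chaperones that handle collagen inside the cell. Of its 18 genes of collagen modification and folding, 4 were lower, P4ha2 among them, and none higher, with a median log2 fold change of −0.63. Serpinh1, the collagen chaperone Hsp47, was lower by 1.48 on the log2 scale, at 1684 ± 514 CPM in stroma and 619 ± 151 in sarcoma cells (SD, n = 4; edgeR adjusted p = 0.0174). The prolyl isomerase Ppib and the protein disulphide isomerase P4hb, which is the other subunit of the prolyl hydroxylase, did not pass (log2 fold change −0.35 and −0.50, adjusted p = 0.146 and 0.121). Of 5 procollagen-processing genes tested, Bmp1, which also cleaves the propeptide of Lox, and Pcolce2 were lower (log2 fold change −3.56 and −3.38, adjusted p = 0.0110 and 0.0291), and the propeptidase Adamts14 was higher by 2.54 (adjusted p = 0.00380).

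Of 13 tenascins and other matricellular genes 3 were lower and none higher, namely Tnc, the collagen-binding Sparc (log2 fold change −2.56, edgeR adjusted p = 0.0105) and fibronectin, Fn1 (log2 fold change −5.53, adjusted p = 0.0492). Postn, periostin, stood at 2416 ± 2382 CPM in stroma and 2574 ± 4600 in sarcoma cells (SD, n = 4; adjusted p = 0.429). Of 9 receptor genes tested for tenascins and fibrillins the integrin subunit Itgav was higher by 1.14 and Itga9, a tenascin-C receptor subunit, lower by 1.61 on the log2 scale (adjusted p = 0.0499 and 0.0306), while Itgb1 did not pass (log2 fold change 0.13, adjusted p = 0.525). Of 14 hypoxia response genes 2 were lower, beside 7.26% of all genes, namely Ndrg1 and Adm (log2 fold change −6.02 and −3.74, adjusted p = 0.00440 and 0.0493), and P4ha1, another prolyl hydroxylase catalytic subunit, stood at 165 ± 63.4 and 149 ± 56.4 CPM (SD, n = 4; adjusted p = 0.688). Of 12 TGF-beta response genes 1 was lower, close to the background share, namely Pmepa1 (log2 fold change −2.21, adjusted p = 0.0380). Loxl4 had too few UMIs for the test, with 0 to 6.51 CPM in stroma.

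The next question was how these cells compare with those of resting muscle. The muscle group has 1 library, which the fit assumes to vary like the sarcomas. The control sample is shared by the comparisons below. In muscle progenitors Fbn1 stood at 1337 CPM, Tnxb at 946, Loxl1 at 464, Loxl2 at 238 and P4ha2 at 168. Plod2 stood at 81.8 CPM, Loxl3 at 42.9, Lox at 42.0, Tnc at 10.6 and Fbn2 at 2.18. The 95% Poisson intervals of these sums are narrow, for example 9.75 to 11.5 CPM for Tnc and 1.80 to 2.62 for Fbn2, and cover counting error only.

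Stroma of the 4 sarcomas lay above muscle progenitors for Lox, Tnc, Fbn2 and Plod2 and below them for Loxl2, Tnxb and Fbn1. The 2 classes were picked by unlike rules. In muscle 1.85% of cells met the stroma rule, and in the sarcomas 16.4% to 89.8% of cells met the Pdgfra rule. The part of this choice in the differences was not tested. Over all genes the 4 stromas lay above progenitors for 19.6% and below them for 30.3%, so 3 of 10 below is the background share and 4 of 10 above is higher than it. Tnc was 36.1, 39.4, 54.4 and 10.7 times its level in progenitors (log2 fold change 5.22 ± 1.20, SE, edgeR adjusted p = 0.267). Fbn2 was 19.7, 20.5, 13.9 and 18.3 times its level (log2 fold change 4.25 ± 0.48, adjusted p = 0.120), and Lox 23.0, 27.1, 15.7 and 3.17 times (log2 fold change 4.21 ± 1.45, adjusted p = 0.398). Tnxb went the other way, with progenitors 13.02, 27.9, 45.2 and 193 times as high as stroma (log2 fold change −4.71 ± 1.05, adjusted p = 0.260). The 2 tenascins thus stood on opposite sides of muscle progenitors in every stroma. Against the muscle cells that met no rule, this held in every stroma but that of sarcoma 4, where Tnc lay below those cells.

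None of the 12729 genes passed in this comparison with edgeR (1438 had an unadjusted p under 0.05), whereas DESeq2 called 733. Without sarcoma 4 edgeR called 491 genes, among them Lox (log2 fold change 4.55, adjusted p = 0.0213), Tnc (5.52, adjusted p = 0.0107), Fbn2 (4.25, adjusted p = 0.0148), Tnxb (−4.39, adjusted p = 0.0288) and Loxl3 (1.56, adjusted p = 0.0457). With Smarcb1-holding stroma alone it called Lox, Tnc, Fbn2 and Tnxb (adjusted p = 0.00893, 0.00290, 0.0399 and 0.00384). On all 4 stromas DESeq2 also called the members Lox, Tnc, Fbn2 and Tnxb (log2 fold change 4.22, 5.24, 4.27 and −4.70). For Fbn1 and P4ha2 the ratios to progenitors were nearer to 1 in sarcomas 1 to 3. There stroma held 0.786 to 0.898 times the Fbn1 level and 0.720 to 1.20 times the P4ha2 level. In sarcoma 4 the ratios were 0.131 for Fbn1 and 0.286 for P4ha2. Loxl1 was 1.24, 1.38 and 1.62 times as high in those 3 sarcomas and 0.180 times in sarcoma 4 (log2 fold change 0.23 ± 1.10, adjusted p = 0.949).

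**Figure D3:**
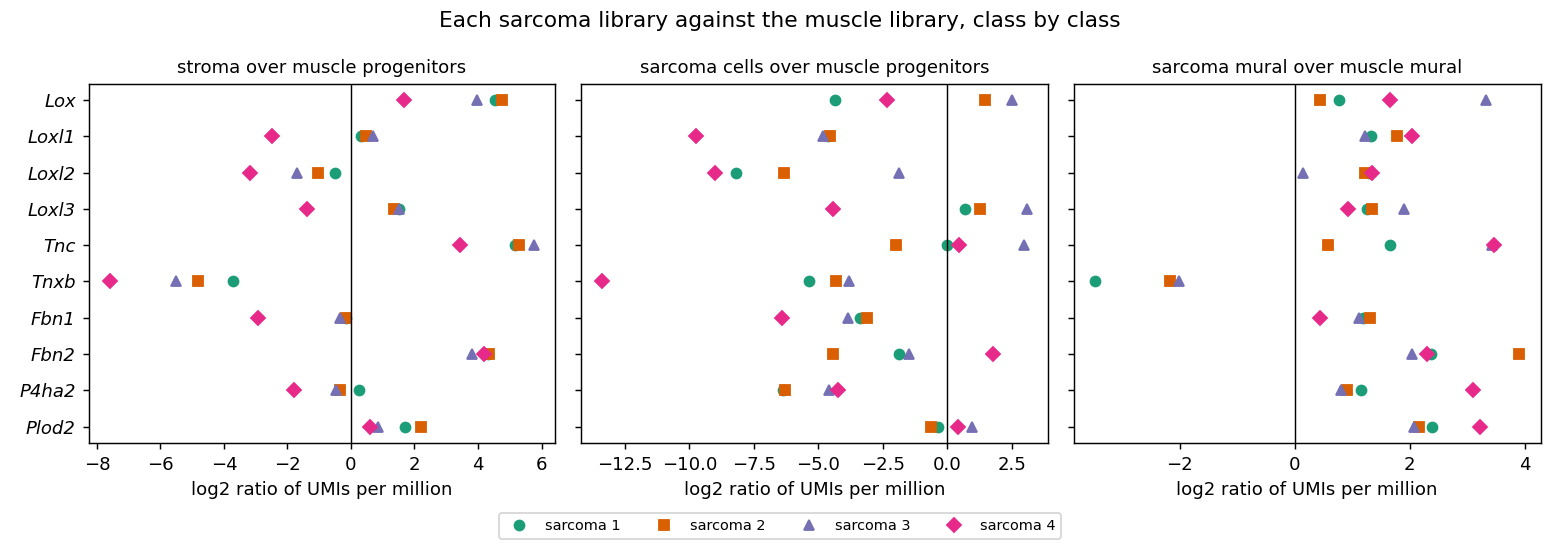
Log2 ratio of CPM of each sarcoma library to the muscle library, for stroma over progenitors, sarcoma cells over progenitors and mural cells over mural cells; symbols are sarcomas 1 to 4, and the 0 of Tnxb in mural cells of sarcoma 4 is not drawn. In stroma, Lox, Tnc and Fbn2 lie right of 0 in all 4 libraries and Tnxb left of it, and in mural cells all genes but Tnxb lie right of 0.

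Sarcoma cells lay below muscle progenitors in all 4 libraries for Loxl1, Loxl2, Tnxb, Fbn1 and P4ha2, and no member lay above in all 4. Over all genes 29.7% lay below and 22.1% above. P4ha2 was 81.8, 78.1, 24.2 and 19.0 times as high in progenitors (log2 fold change −4.94 ± 0.81, SE, edgeR adjusted p = 0.189), and Loxl1 was 24.9, 23.5, 27.9 and 853 times as high, the last on a sarcoma 4 level of 0.544 CPM (log2 fold change −4.91 ± 1.41, adjusted p = 0.287). Tnxb was 40.9, 20.1 and 14.03 times as high in progenitors as in sarcoma cells of sarcomas 1 to 3, and those of sarcoma 4 held 10 UMIs of it among 112205353. Lox, Loxl3, Tnc, Fbn2 and Plod2 lay on both sides of muscle. With DESeq2 the members Loxl1, Fbn1 and P4ha2 passed as lower in sarcoma cells (log2 fold change −4.93, −3.62 and −4.96). edgeR called 0 of 17627 genes here (2204 at an unadjusted p under 0.05), and DESeq2 called 1855.

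In whole libraries the same 5 genes, Loxl1, Loxl2, Tnxb, Fbn1 and P4ha2, lay below muscle in all 4 sarcomas and no member above in all 4, beside 29.7% and 21.4% of all genes. P4ha2 stood at 151 CPM in muscle and 7.85, 5.61, 41.8 and 8.33 CPM in the sarcomas, and Fbn1 at 1242 CPM and 159, 183, 378 and 18.6 CPM. Sarcoma 3 was the highest of the sarcomas for both, and 24.0% of its cells were stroma, against 1.90%, 1.79% and 0.513% in sarcomas 1, 2 and 4. Stroma held 71.2% of the Fbn1 UMIs and 74.3% of the P4ha2 UMIs of sarcoma 3. In sarcoma 1 stroma was 1.90% of cells and held 61.1% of the Lox UMIs, so 141 cells supplied most of its library level of 26.5 CPM. In sarcoma 2 sarcoma cells held 77.4% of the Lox UMIs instead. edgeR called 0 of 18739 genes between whole libraries (1715 at an unadjusted p under 0.05), and DESeq2 called 1131, with no member among them.

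**Figure D4:**
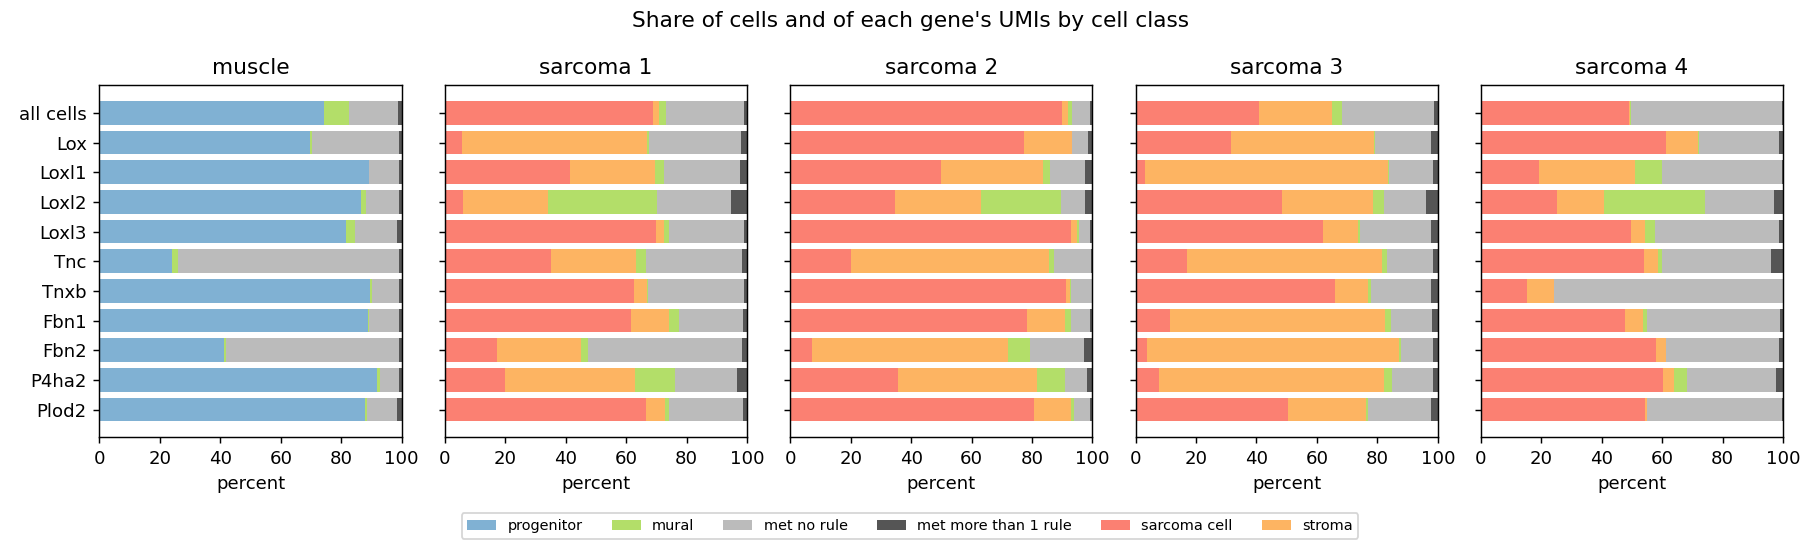
Share of cells (top bar) and of the UMIs of each gene (other bars), in percent, by cell class in each library. Stroma is a thin slice of the cells of sarcomas 1, 2 and 4, yet holds 61.1% of Lox UMIs in sarcoma 1 and 65.3% of Tnc UMIs in sarcoma 2.

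In muscle itself Tnc did not belong mainly to the progenitors. Cells that met no rule, 16.4% of the library, held 73.2% of its Tnc UMIs and 57.4% of its Fbn2 UMIs. Their level was 213 CPM for Tnc, 20.1 CPM for Fbn2 and 114 CPM for Lox, each above that of progenitors. Summed tenocyte markers reached 10159 CPM in these cells and 565 CPM in progenitors, with none of the 6 markers at 0 in either, glial markers 830 and 43.3 CPM, and myogenic markers 756 and 49.7 CPM. The part of tendon, glial or myogenic cells in these levels was not tested. In stroma of the sarcomas tenocyte markers summed to 969, 626, 3871 and 1003 CPM, and their part in the stroma levels of Tnc, Fbn2 and Lox was not tested either.

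The last comparison set mural cells of the tumours against those of muscle. In mural cells of the sarcomas 9 of the 10 genes lay above muscle mural cells in all 4 libraries, beside 17.7% of all genes, and Tnxb lay below in all 4, as did 39.9% of all genes. None of the 10 passed the test, which called 1.30% of 11653 genes. Plod2 came nearest, at 76.9, 65.9, 61.8 and 137 CPM against 14.7 CPM in muscle mural cells (95% Poisson interval 10.2 to 20.4), with no overlap (log2 fold change 2.66 ± 0.55, SE, edgeR adjusted p = 0.0660, and 0.0323 without sarcoma 4). Loxl1 stood at 28.1 CPM in muscle and was 2.52, 3.45, 2.33 and 4.13 times as high (log2 fold change 1.79 ± 0.43, adjusted p = 0.0866), and Loxl3 was 2.38, 2.54, 3.75 and 1.90 times as high (log2 fold change 1.63 ± 0.40, adjusted p = 0.0965). Tnc stood at 17.2 CPM in muscle and 54.0, 25.8, 186 and 191 CPM in the sarcomas (log2 fold change 2.85 ± 1.18, adjusted p = 0.251). Tnxb fell short of its 92.0 CPM in muscle in each sarcoma, at 8.28, 20.4 and 22.9 CPM in the first 3, with 0 UMIs in sarcoma 4, which allows up to 12.5 CPM (log2 fold change −2.39 ± 0.65, adjusted p = 0.118). With DESeq2 the members Plod2, Loxl1, Loxl3 and Fbn1 passed as higher in the sarcomas (log2 fold change 2.68, 1.79, 1.63 and 1.27). Fbn2 rests on 2 UMIs in muscle mural cells. The muscle mural cells were shallower, with a median of 3175 UMIs a cell against 9489 to 11969 in the sarcomas, and 0 of the 9 mural markers were at 0 in any of these classes. When cells were thinned to 2000 UMIs, Fbn2 had too few UMIs for the test and the other 8 genes had the same direction, with Plod2 (log2 fold change 2.20) and Tnc (3.04, edgeR adjusted p = 0.0387) past the threshold as higher and Tnxb as lower (−2.13, adjusted p = 0.0412). The mural classes were not purged alike. In muscle, mural cells with a Pdgfra UMI were left out, whereas mural cells of the sarcomas held Pdgfra at 0 to 102 CPM. With cells of more than 1 rule kept, Loxl1 turned to −0.12 on the log2 scale. It was the 1 value of 129 recomputed for this comparison that changed sign. Over the alternatives Fbn1 ranged from 0.16 to 1.40 and Plod2 from 1.44 to 2.80. The part of the unlike rules in these differences was not tested.

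Each member has its place in the genome on build GRCm38, and all are protein-coding. Fbn1 lies on chromosome 2 from 125300594 to 125507993 and Loxl1 on chromosome 9 from 58287738 to 58313186, both on the minus strand. Plod2 lies on the same chromosome 9 from 92542223 to 92608428 and P4ha2 on chromosome 11 from 54100095 to 54131665, both on the plus strand. Tnc lies on chromosome 4 from 63959785 to 64047015 on the minus strand, and Tnxb on chromosome 17 from 34670535 to 34719815 on the plus strand. Loxl2 lies on chromosome 14 from 69609068 to 69695834 and Loxl3 on chromosome 6 from 83034173 to 83052562, both on the plus strand. Lox (52516067 to 52529867) and Fbn2 (58008623 to 58210487) share the minus strand of chromosome 18. Loxl3 overlaps Htra2 on the other strand by 1297 bases, and Loxl2, Fbn1 and Fbn2 each overlap a predicted gene on the other strand, so for these 4 the split of reads depends on the strand having been used in counting, which no source used here states.

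The genes with the most similar levels were also listed for each member. Over the 14 class profiles the genes most like P4ha2 were Sardh, Serpinh1 and Hspb8 (Pearson r = 0.948, 0.946 and 0.941), and those most like Fbn2 were the fibrillar collagen gene Col24a1, Emb and Cd276 (0.944, 0.911 and 0.904). For Loxl3 they were Pros1, Dok1 and Tspan4 (0.951, 0.945 and 0.932). Dok1 starts 702 bases from the start of Loxl3 on the opposite strand. Lox was most like Fzd1 (0.932), Loxl2 like Marcks (0.940), Tnc like Fuca2 (0.928), Tnxb like Ski (0.918) and Plod2 like Vgll3 (0.941). Among the members themselves, P4ha2 was closer to Loxl2 (0.836) than to Plod2 (0.360).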

How the data were processed

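Gene expression was measured by 10x Genomics 3′ single-cell RNA sequencing of sorted cells, per the labels' protocols. The authors aligned and counted by Cell Ranger (version 6.0.1 per the file headers) on mm10 (per the submitters' processing notes). The deposited values are raw counts of UMIs per gene and barcode, 1 matrix a library, with no barcode under 500 UMIs. The sources used here do not give the strand setting or annotation release.

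Barcodes were kept from 500 genes upward and up to 10% of UMIs from mitochondria, with Python 3.11.15, numpy 2.4.6, scipy 1.17.1 and pandas 2.3.3. Doublets were not removed, and cells in the top 5% of UMIs were left out in an alternative. Counts were summed per library and class and tested by edgeR 4.0.16 quasi-likelihood (R 4.3.3) (TMM scaling, filterByExpr, Benjamini-Hochberg threshold 0.05 over all genes). All 10 members passed that filter in each comparison. The classes of the 4 sarcomas were fitted together, 12 sums with 6 residual degrees of freedom, with the library as a block, since the classes of a library come from the same tumour. Comparisons with muscle left 3. SE is the absolute log2 fold change over the root of the F statistic. DESeq2 1.42.0, other scaling, no filter, other cell and class rules, thinning to 2000 UMIs and dropping 1 sarcoma at a time were tried as alternatives, and 2 stroma rules (a Smarcb1 UMI, no Gchfr UMI) were added after seeing the data. Pathway genes are named by rule, the 3 of highest mean CPM in each list and up to 2 called genes on each side (not all are printed), with the 3 genes most like each member. Testing steps were tested on simulated data, and figures drawn with matplotlib 3.10.9. Members and lists were chosen with earlier results of these data known.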

Additional observations from a re-analysis of the deposited data

Results flagged for a closer look

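In groups of 4 sarcoma libraries, 13 of 40 levels of the members had 1 library far from the rest (a gap to the nearest library past the 95% critical value of Dixon's test). Chance flags about 1 in 20 such groups. The levels share libraries, so the flags are not independent.

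Sarcoma 3 stood alone in 7 of them. In the whole library it was high for Loxl1 (240 CPM, nearest 36.6), Loxl2 (63.5, nearest 10.1), P4ha2 (41.8, nearest 8.33) and Tnc (229, nearest 22.8). In its sarcoma cells it was high for Loxl2 (65.3 CPM, nearest 2.95) and Tnc (82.4, nearest 14.6), and in its mural cells low for Loxl2 (125 CPM, nearest 264). Stroma made up 24.0% of its cells, the largest share among the 4 sarcomas. The part of that share in the library levels was not tested.

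Sarcoma 4 stood alone in 5. It was low in stroma for Fbn1 (175 CPM, nearest 1050) and Loxl3 (16.3, nearest 110) and low in sarcoma cells for Loxl1 (0.544, nearest 16.6). It was high in sarcoma cells for Fbn2 (7.41 CPM, nearest 0.777) and high in mural cells for P4ha2 (303, nearest 78.1, on 25 cells). Sarcoma 2 stood alone in mural cells for Fbn2 (12.6 CPM, nearest 4.34).

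For some genes the difference from muscle pointed opposite ways in different classes, in all 4 libraries of each. Loxl2 was lower in stroma than in muscle progenitors (log2 fold change −1.19) and higher in mural cells of the sarcomas than of muscle (1.27), and Fbn1 likewise (−0.47 and 1.26). Sarcoma cells lay below progenitors where mural cells lay above muscle mural cells for Loxl1 (−4.91 and 1.79), Loxl2 (−3.83 and 1.27), Fbn1 (−3.60 and 1.26) and P4ha2 (−4.94 and 1.91). These differences between classes were not tested.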

How the results depend on the processing

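Of 999 recomputed log2 fold changes of members, 885 kept their direction and their side of the threshold, 75 gained a call, 17 lost one and 22 changed sign. Genes called between sarcoma cells and stroma (1256) numbered 2956 with DESeq2, 749 after thinning, 2074 with stricter class rules, 2275 with Smarcb1-holding stroma and 516 without the replicate block, and 212 to 3121 without 1 sarcoma. Between mural cells and stroma (909) they were 1989, 501 and 357 with DESeq2, thinning and no block, and 102 to 1508 without 1 sarcoma. Between mural and sarcoma cells (2375) they were 1149 after thinning and 1080 without the block, and 660 to 3077 without 1 sarcoma. Against muscle, DESeq2 called 1131 genes in libraries, 733 in stroma, 1855 in sarcoma cells and 667 in mural cells. Stroma against progenitors gave 1 gene with no filter, 234 after thinning, 4 without the top 5% of UMIs, 0 to 491 (sarcoma 4 out) without 1 sarcoma, 473 with stricter rules, 582 with Smarcb1-holding stroma and 1 with stroma free of Gchfr. Mural cells against muscle (151) gave 379 with no filter, 418 after thinning, 45 with cells of 2 rules kept, 272 with stricter rules and 18 to 294 without 1 sarcoma.

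Signs changed mostly for Loxl3. Against stroma, its log2 fold change in sarcoma cells was 0.027 after thinning, −0.87 to 0.18 without 1 sarcoma (0.13 without sarcoma 1) and 0.41 without the block, and in mural cells −0.44 after thinning, −0.051 without the top 5%, −0.52 (sarcoma 4 out) to 0.48 without 1 sarcoma, −0.21 without the block, −0.48 with stricter rules and −0.54 with Smarcb1-holding stroma. In mural against sarcoma cells it was −0.47 after thinning, −0.70 (sarcoma 4 out) to 1.14 without 1 sarcoma and −0.63 without the block, with Lox at −1.42 to 0.032 (sarcoma 2 out) and Plod2 at −0.50 to 0.11 (sarcoma 3 out). Tnxb in sarcoma cells against stroma was 0.90 with stricter rules. Against muscle, leaving out 1 sarcoma gave Tnc in libraries −0.85 (sarcoma 3 out) to 1.28 and Fbn2 in sarcoma cells −2.08 (sarcoma 4 out) to 0.58. There, P4ha2 was 0.17 in Smarcb1-holding stroma, Loxl1 in stroma −0.019 (sarcoma 3 out) to 0.58 without 1 sarcoma and −0.013 with cells of 2 rules kept, and Loxl1 in mural cells −0.12 with those cells kept. None of the reversed values passed the threshold, and the causes were not tested. Library scaling changed no sign. No pairing with muscle was possible, since it has 1 library. The few stroma and mural cells of sarcoma 4 limit the depth there.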
